A study of Mus musculus with 20 samples.

Results

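Id1, Id2 and Id3, the inhibitors of the helix-loop-helix (HLH) factors, were described in the macrophages that a mouse breast cancer induces from B cells and from monocytes, in tumor cells and in the chromatin of B-cell precursors. They are 3 of the 15855 genes in the scRNA-seq table of cultured cells and 3 of the 15333 genes in that of tumor cells. They were chosen by their mean levels in B-MF against Mo-MF, so the values of that contrast are given as a description, without a test. Id4, the remaining gene of the family, was listed for the cultured cells only, with a count in 4 and 3 cells of the B-MF libraries and in 0 Mo-MF cells.

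Id proteins carry an HLH domain but no basic region, so they pair with the E proteins Tcf3, Tcf4 and Tcf12 and keep them from binding DNA at E-box sequences. E proteins switch on the early B-cell program, and Id2 and Id3 set how much of their activity remains as lymphoid and myeloid cells are formed. BMP signals through Smad proteins and the ERK and Egr pathway are known inducers of Id genes, and Id3 is known for its part in resident macrophages of the liver.

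B-MF were grown from B cells sorted from bone marrow (BM) of mice without tumors, and Mo-MF from monocytes. Both were kept for about a week in medium conditioned by 4T1.2, a mouse breast cancer cell line, so no culture was without cancer factors. TAM were sorted from 4T1.2 tumors of 4 mice, whose libraries keep the numbers 2 to 5 of the deposited table. The study's methods name C57BL/CJ or BALB/CJ mice as B-cell donors of such cultures, and which strain gave these libraries is not stated. They describe the mice as young females and 4T1.2 tumors as grown in mice of BALB/c background. Chromatin was read by ATAC-seq in CSF1R+ and CSF1R- cells from BM and from spleen of mice without tumors, with 3 libraries each. The study describes these as B-cell precursors of BM origin, while their labels call them macrophages, and the peak lists hold no expression with which to check either name.

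The cultured cells comprised 5237 and 5326 B-MF and 4846 and 5389 Mo-MF, and the tumor libraries 3180, 2318, 2387 and 3000 cells. Values are counts per cell after the authors' SCTransform correction for depth. Median totals were 18350 to 19469 corrected counts per cell in culture and 7651 to 8266 in tumors. At most 14 cell barcodes were shared by any pair of libraries, and doublets were not removed. All 10 macrophage markers averaged at least 0.1 in each of the 8 libraries, and their summed level was 442 and 428 in B-MF, with Mo-MF at 641 and 629. Cells of other kinds were found as well. Clusters named from macrophage markers held 93.8% and 94.6% of B-MF, and of Mo-MF 56.3% and 57.2%. These shares describe each culture and are not compared, since clusters 4 and 5 of that class had a monocyte marker and no macrophage marker among their leading 10 genes. Of all Mo-MF, 5.70% and 4.81% were neutrophil-like, 5.10% and 4.84% monocyte-like and 32.9% and 33.1% in clusters without a name. Most of the last were in cluster 3 (1165 and 1324 Mo-MF cells), led by Bex1 and Arg1. A cluster without a name was given no class by the marker rule, so its cells need not be of another kind. At a finer clustering resolution of 1, 9.82% and 8.83% of Mo-MF were neutrophil-like and 1.01% and 0.835% monocyte-like. The summed level of neutrophil markers was 1.07 and 0.726 in B-MF, against 158 and 125 in Mo-MF, and its part in the differences below was tested only by leaving such clusters out. In tumors 37.0%, 63.2%, 48.3% and 56.5% of the cells of libraries 2 to 5 were neutrophil-like and 14.2% to 32.2% macrophage-like, the latter 4.79% to 20.6% at a resolution of 0.25 and 6.26% to 24.1% at 1. No label puts the libraries in separate batches, and none says which animals gave the cultures, so the p-values below measure only the spread between these libraries.

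Id3 was the member with the clearest separation between the cultures. The B-MF libraries averaged 2.65 and 2.25 corrected counts of it per cell, the Mo-MF libraries 0.0431 and 0.0494. Both B-MF libraries lay far above both Mo-MF libraries, a ratio of means of 53.0. On the scale of log2 (mean + 0.1) the difference was 4.12 (SE 0.08, n = 2 libraries per group), the most positive of the 8633 genes whose mean over the 4 libraries reached 0.1. With a constant of 1 in place of 0.1 it was 1.72, number 3 from the top, and on means of the deposited logs it was number 14. For 69.6% of these genes, libraries of the groups did not overlap. A count of Id3 was present in 53.2% and 50.5% of B-MF cells, against 3.01% and 3.099% of Mo-MF. When every cell was thinned to 5000 corrected counts, which all 20798 cells reached, the shares were 31.8% and 29.8% against 1.16% and 1.26%. In the neutrophil-like Mo-MF cluster, a count was present in 0.725% and 1.93% of cells.

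The separation of Id3 lay in the level within cells as well as in the number of cells. Among cells with a count, B-MF averaged 4.98 and 4.46 and Mo-MF 1.43 and 1.59. At least 10 corrected counts were found in 7.28% and 5.41% of B-MF and in 0 Mo-MF cells of either library. At the other end, 46.8% and 49.5% of B-MF had no count. B-MF thus ranged from cells with none to cells with at least 10.

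Id1, which is induced by BMP signals in many cell types, had lower counts. It averaged 0.284 and 0.275 per B-MF cell and 0.0801 and 0.0726 per Mo-MF cell, with a count in 12.2% and 10.7% against 3.92% and 3.30% of cells. The B-MF libraries lay above the Mo-MF libraries, with a ratio of 3.66 and a log2 difference of 1.11 (SE 0.05). That difference was number 65 from the top of the 8633 genes, but it was 0.25 and number 394 with a constant of 1, and 1.75 and number 37 with 0.01. On means of the deposited logs it was number 941.

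Id2, which is needed for innate lymphoid cells and several dendritic cells, was found in nearly every cultured cell. It averaged 9.39 and 9.01 per B-MF cell and 6.46 and 6.39 per Mo-MF cell, with a count in 95.4% and 97.6% against 93.5% and 94.4% of cells. The libraries did not overlap here either, but the ratio was only 1.43 and the log2 difference 0.51 (SE 0.05), number 328 from the top (number 124 with a constant of 1). The shares of cells with a count, all near their ceiling, hardly separated the cultures, whereas the level did. Thinned to 5000 corrected counts, the shares were 78.0% and 79.4% in B-MF, against 69.7% and 70.0% in Mo-MF, without overlap.

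**Figure D1:**
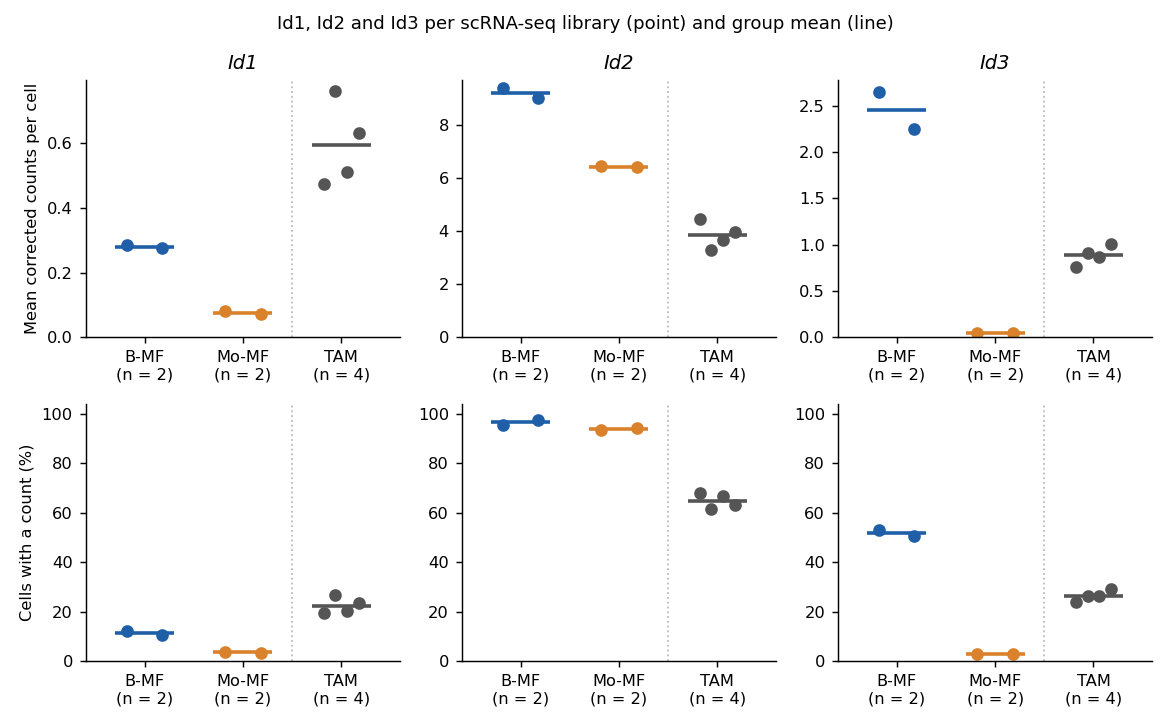
Mean corrected counts per cell (top) and share of cells with a count (bottom) of Id1, Id2 and Id3, with a point for each library and a line for the group mean. Cultured cells and TAM lie on either side of the dotted line because their tables were normalized separately. Id3 was present in 53.2% and 50.5% of B-MF and 3.01% and 3.099% of Mo-MF, and Id2 in nearly all cultured cells.

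To see where the members lay, cultured cells were grouped into 12 clusters without the use of Id1 to Id4. Most B-MF fell in clusters 0, 2 and 5 and most Mo-MF in clusters 1, 3 and 4, so few clusters held many cells of both. The cluster led by cell cycle genes (number 7) was one of these, with 275 and 258 B-MF and 191 and 229 Mo-MF cells. In it Id3 averaged 4.17 and 3.36 in B-MF, against 0.0628 and 0.0611 in Mo-MF. Id1 averaged 1.12 and 1.30 in the B-MF of this cluster, against 0.0262 and 0.0568 in its Mo-MF. A count of Id1 was present in 45.1% and 36.4% of these B-MF, and of Id3 in 68.7% and 70.2%. For both genes, the B-MF libraries were above the Mo-MF libraries among cycling cells.

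Cluster 6, led by Gm42418, Malat1 and mitochondrial transcripts, also held both cultures, with 328 and 280 B-MF and 232 and 253 Mo-MF cells. Id3 averaged 0.591 and 0.650 in its B-MF and 0.0216 and 0.0277 in its Mo-MF. Id1 gave 0.110 and 0.0286 in B-MF, against 0.155 and 0.0514 in Mo-MF there, so the libraries overlapped. Among the main B-MF clusters, Id3 was present in 61.5% and 60.5% of cells of cluster 0 (led by Myc and St3gal5), 52.1% and 45.1% of cluster 2 (Tmem176a and Ier3) and 34.01% and 31.9% of cluster 5 (the transcripts Gm42418 and AY036118, then Nr4a1 and Egr1). The order of these 3 clusters was the same in both libraries. Id1 had the same order, with 16.1% and 14.5% in cluster 0, 4.91% and 5.40% in cluster 2 and 2.65% and 3.03% in cluster 5.

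**Figure D2:**
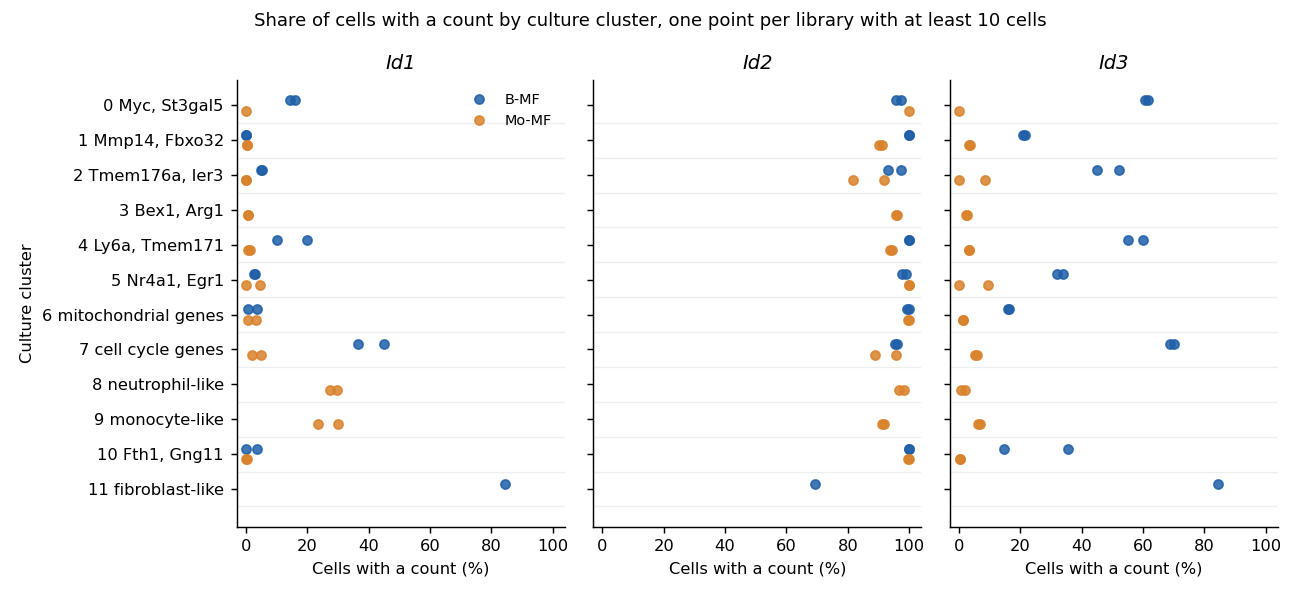
Share of cells with a count of each Id gene (horizontal axis, percent) in the 12 clusters of cultured cells (vertical axis), with a point for each library that had at least 10 cells there. In cluster 7, led by cell cycle genes, Id3 was present in 68.7% and 70.2% of B-MF and 5.76% and 5.24% of Mo-MF.

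Id1 came from different clusters in B-MF and in Mo-MF. In B-MF, cluster 0 gave 58.8% and 58.6% of all Id1 counts, the cycling cluster 20.8% and 23.0%, and the few fibroblast-like cells 4.64% and 2.05%. In Mo-MF, neutrophil-like cells gave 51.0% and 62.7% and monocyte-like cells 28.6% and 22.0% of the Id1 counts. A count of Id1 was present in 27.5% and 29.7% of the neutrophil-like Mo-MF and in 29.96% and 23.4% of the monocyte-like ones. The monocyte-like values depended on the clustering, as that cluster also had all 9 neutrophil markers above average. At a finer resolution of 1, most of its cells joined a neutrophil-like cluster led by Ltf and Stfa3, with a count of Id1 in 30.6% of its 418 cells. Monocyte-like cells then numbered 49 and 45, with a count of Id1 in 14.3% and 2.22% of them, and gave 3.61% and 0.256% of the Id1 counts of Mo-MF, against 76.3% and 84.4% from neutrophil-like cells. Without the neutrophil-like cluster found at a resolution of 0.5, the log2 difference of Id1 was 1.49 in place of 1.11. The culture had no lymphoid or dendritic cluster to leave out, and the monocyte-like cluster stayed in. The fibroblast-like cluster had the highest level of Id1 and Id3, at 5.31 and 15.5 in its 13 cells of B-MF replicate 1, but held only 23 cells in all. Markers of fibroblasts were low in the whole libraries, with a summed level of 0.168 and 0.151 in B-MF, against 0.00598 and 0.0269 in Mo-MF. Without these cells, none of the 3 differences moved by more than the spread between libraries.

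Within B-MF, Id1 and Id3 were found in the same cells more often than the product of their shares. Both had a count in 9.81% and 8.77% of cells, against products of 6.51% and 5.42%. Id3 was present in 80.2% and 81.6% of the Id1-positive B-MF and in 49.4% and 46.7% of the rest. Over cells, Pearson's r between them was 0.257 and 0.236 (n = 5237 and 5326 cells that share a library and its depth). For Id2 with Id3, r was 0.161 and 0.183, and for Id1 with Id2 it was 0.105 and 0.108. In Mo-MF the r of Id1 with Id3 was -0.02 and -0.000136, and it lay between -0.04 and 0.01 in the 4 tumor libraries. Whether r differed between B-MF and the other cells was not tested.

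Genes whose counts followed those of Id3 within B-MF were ordered by r over cells among 7966 genes detected in at least 10% of cells of both libraries, each gene by its r nearer to 0. The highest was St3gal5, which makes the ganglioside GM3, with r of 0.307 and 0.289. Id1 came next, and then Selenow, a selenoprotein, with 0.246 and 0.231, and S100a6, a calcium-binding protein, with 0.205 and 0.225. The rest of the first 12 included the actin gene Actg1, the actin-binding Tmsb4x, the peroxiredoxin Prdx4, the cyclophilin Ppia, the chemokine Cxcl14, the ribosomal protein gene Rpl17 and the elongation factor Eef1a1, with r of 0.185 to 0.216. All of these are weak correlations over cells, and cells of a library share its depth. Given each cell's total and its number of detected genes, the 12 kept positive r of 0.0982 to 0.244.

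St3gal5 averaged 0.860 and 0.837 in B-MF without a count of Id3 and 1.86 and 1.76 in those with one. In cells with at least 5 counts of Id3 it averaged 2.28 and 2.12. The level thus rose over the 3 groups of cells in both libraries. Id1 averaged 0.0934 and 0.0747 in cells without Id3 and 0.686 and 0.732 in those with at least 5 counts of it. Between the cultures, St3gal5 averaged 1.39 and 1.30 in B-MF, against 0.214 and 0.203 in Mo-MF.

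The lowest r belonged to Ccl8, a chemokine for monocytes, at -0.20 in both libraries. It averaged 9.53 and 8.76 in B-MF without Id3 and 5.06 and 4.40 in those with it. After it came the nuclear RNA Malat1, the lipid genes Pla2g7, Pltp and Apoe, and the heparanase Hpse, with r of -0.13 to -0.17. Given each cell's total and its number of detected genes, the 6 kept negative r, but only 2 remained among the 6 lowest. In cluster 0 alone, chosen after seeing the data, 1 remained, and Apoe had r of -0.0229 and -0.0469. Apoe averaged 186.1 and 178.3 in B-MF without Id3 and 111.0 and 100.5 in those with it. Of these 6 genes, all but Malat1 also had lower means in both B-MF libraries than in either Mo-MF library. Among the genes named above for the highest r with Id3, all but S100a6 had higher means in both B-MF libraries. S100a6 averaged 7.40 and 7.18 in B-MF, against 10.5 and 10.2 in Mo-MF. Libraries of the cultures did not overlap for 69.6% of all genes tested, in either direction, so such counts say little.

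In all, 188 genes had r of at least 0.1 and 14 had r of at most -0.1 in both libraries. Of 88 ribosomal protein genes, 43 were among the former. The r values of the libraries were alike over the 7966 genes (r = 0.843, across genes, which are not independent). Egr1, the early growth response factor, had r of 0.08 and 0.04 within B-MF, where the median over the 7966 genes was 0.0365 and 0.0368. It averaged 7.32 and 7.17 in B-MF without Id3 and 7.46 and 6.78 in those with it. Since 188 of all 7966 genes reached r of 0.1 in both libraries, counts from short lists say little. Of the 30 ERK and Egr response genes compared, with a median r of 0.047 and 0.043, 0 did. Among genes of the cell cycle 2 of 12 did. Of 18 BMP, TGF-beta and SMAD genes compared, 1 did, the co-receptor Eng, with r of 0.128 and 0.124, while Bmp2 had 0.07 and 0.02.

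**Figure D3:**
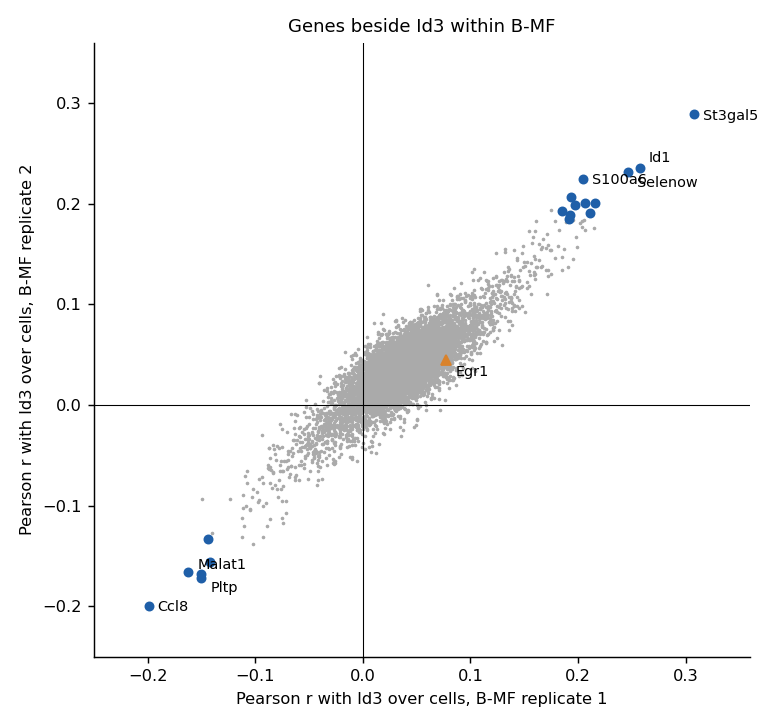
Pearson r with Id3 over cells in B-MF replicate 1 (horizontal axis) and replicate 2 (vertical axis) for the 7966 genes (grey), with the 12 highest and 6 lowest in blue and Egr1 as a triangle. St3gal5 was highest at 0.307 and 0.289, and Ccl8 lowest at -0.20 in both.

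The 5 genes highest for Id1 were Top2a, St3gal5, Cdk1, Id3 and the histone gene Hist1h2ae, with r of 0.233 to 0.257. Without the cycling and mitochondrial clusters, the cell cycle genes Top2a, Cdk1 and Hist1h2ae had r of 0.0310 to 0.0844, and St3gal5 and Id3 had 0.205 to 0.227. For Id2 the 5 highest were the galectin Lgals3, the macrophage elastase Mmp12, the DNA methyltransferase Dnmt3a, the G protein regulator Rgs1 and the stress factor Atf3, with r of 0.179 to 0.230. None of these 5 was among the first 12 of Id3.

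The partners and inducers of Id proteins, on which the choice of the members does not rest directly, were compared between B-MF and Mo-MF with limma, with Benjamini-Hochberg adjustment over all 8633 genes. At adjusted p of 0.05, 39.5% of all genes passed (22.6% higher and 16.9% lower in B-MF), so a call was common. The share moved with the libraries, to 60.3% without B-MF replicate 1 (2271 higher and 2934 lower), 63.7% without B-MF replicate 2, and 23.7% and 25% without Mo-MF replicates 1 and 2. Of the 3 E protein genes, 1 passed. Tcf4 averaged 2.42 and 2.37 in B-MF, against 1.63 and 1.69 in Mo-MF, without overlap, and was higher in B-MF (log2 0.50, SE 0.05, adjusted p = 0.000138). Tcf3, whose products E12 and E47 drive the B lineage, averaged 0.304 and 0.277 in B-MF, against 0.284 and 0.261 in Mo-MF (log2 0.07, SE 0.06). Tcf12, which encodes HEB, averaged 0.559 and 0.524 in B-MF, against 0.537 and 0.530 in Mo-MF (log2 0.02, SE 0.05). The libraries of the cultures overlapped for both. Without B-MF replicate 2, limma called 2 of the 3, when 63.7% of all genes were called.

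Of the class II HLH factors that pair with E proteins, only Tal1 and Lyl1 of 9 listed reached the minimum level, and limma called 0 of these 2. At an unadjusted p under 0.05 there was 1, Lyl1, a regulator of blood progenitors, at log2 -0.15 (SE 0.06). Limma called 1 of the 2 without B-MF replicate 1 and both without B-MF replicate 2, when 60.3% and 63.7% of all genes were called. Of the 21 other HLH factors tested, 6 were higher and 8 lower in B-MF, and their median on the log2 scale was 0.02. The share called was 66.7%, against 39.5% of all genes. Without Mo-MF replicate 1 or 2, 7 and 9 of the 21 were called, when the share over all genes also fell, to 23.7% and 25%. Myc, the growth factor-driven regulator, averaged 0.414 and 0.399 in B-MF, against 0.0700 and 0.0731 in Mo-MF (log2 1.56, SE 0.05). The Myc antagonist Mxd4 (log2 0.74) and the aryl hydrocarbon receptor Ahr (0.71) were also higher. The repressors Bhlhe40 (log2 -1.16), Mxd1 (-1.001) and Bhlhe41 (-0.55) were lower.

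Of 20 BMP, TGF-beta and SMAD genes tested, 7 were higher and 3 lower in B-MF, and 10 did not pass. The share called was 50%, against 39.5% of all genes. The ligand Bmp2 averaged 0.605 and 0.566 in B-MF, against 0.166 and 0.166 in Mo-MF (log2 1.37, SE 0.05). The receptors Tgfbr2 (log2 0.41) and Bmpr2 (0.18) and the decoy receptor Bambi (0.39) were higher too. Lower in B-MF were the receptor Tgfbr1 (log2 -0.61), the co-receptor Eng (-0.42) and the ubiquitin ligase Smurf1 (-0.23). The Smad genes that carry or dampen BMP signals, Smad1, Smad5 and Smad7, did not pass, with log2 differences of 0.07 to 0.13. Smad6, an inhibitory Smad, stayed under the minimum level, at 0.0619 and 0.0443 in B-MF, against 0.0167 and 0.0128 in Mo-MF. The BMP receptor Bmpr1a did too, at 0.0220 and 0.0150 in B-MF, against 0.0479 and 0.0390 in Mo-MF. Without Mo-MF replicate 1 or 2, 5 of the 20 genes were called, as were 23.7% and 25% of all genes. Without B-MF replicate 2, 16 were, against 63.7% of all genes.

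The ERK and Egr response genes had the highest median difference of the 8 lists, at 0.79 on the log2 scale. Of 32 tested, 23 were higher and 0 lower in B-MF, 71.9% against 39.5% of all genes. Larger shares, in both directions, were called among the E protein targets (83.3%) and the tissue macrophage genes (86.7%). At an unadjusted p under 0.05, limma gave 24 higher and 1 lower. The list was set up with the earlier result for Egr1 known, and the study names Egr1, Ier2 and Ier3 as B-MF genes from these same libraries. It is therefore no independent evidence of a direction. Nr4a1, an immediate early nuclear receptor, averaged 1.32 and 1.20 in B-MF, against 0.0997 and 0.0857 in Mo-MF (log2 2.82, SE 0.06). Egr1 averaged 7.40 and 6.97 against 1.27 and 1.10 (log2 2.51, SE 0.07), and Fosb, an AP-1 subunit, 1.56 and 1.37 against 0.196 and 0.182 (log2 2.44, SE 0.07). For all 3 the adjusted p from limma was 1.26e-07 or less, which adds no support, as the list was set up with these data known.

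Genes that E proteins drive in B cells were mostly too low to test. Of 20 listed, 6 reached the minimum, of which 2 were higher and 3 lower in B-MF. The share called was 83.3% of these 6, against 39.5% of all genes. The adaptor Blnk (log2 0.36) and the cytokine signalling inhibitor Socs3 (0.43) were higher, and the lectin Cd22 (-1.89), the receptor Il7r (-1.21) and the chemokine receptor Cxcr4 (-0.53) were lower. Ebf1, Pax5 and Cd79a, which define the B lineage, stayed under the minimum. Ebf1 averaged 0.0281 and 0.0186 in B-MF and was at 0 in both Mo-MF libraries. Pax5 averaged 0.00325 and 0.00432 in B-MF and was at 0 in Mo-MF, and Cd79a averaged 0.0206 and 0.0188 against 0.00351 and 0.000557. Cd79b, its partner in the B-cell receptor, went the other way, at 0.0653 and 0.0563 in B-MF, against 0.108 and 0.104 in Mo-MF. The summed level of the 8 B-cell markers was 0.564 and 0.509 in B-MF, against 3.42 and 0.151 in Mo-MF replicates 1 and 2. Mo-MF replicate 1 stood apart through the immunoglobulin gene Igkc, at 3.26 there against 0.0160 to 0.0714 in the other 3 libraries.

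Of 15 genes of Kupffer cells and other tissue macrophages, 7 were higher and 6 lower in B-MF, and their median on the log2 scale was -0.02. The share called was 86.7%, against 39.5% of all genes. The iron exporter Slc40a1 (log2 2.21) and the complement genes C1qa (0.98) and C1qc (0.96) were higher, and Irf7 (-1.47), the folate receptor Folr2 (-0.74) and the sterol receptor Nr1h3 (-0.66) lower. Slc40a1 is one of the genes by which the study marks B-MF in these same libraries, so its call is no independent result. Of 16 cell cycle genes, 8 were higher and 1, Pcna (log2 -0.54), lower, while 15 of the 16, and 63.7% of all genes, were called without B-MF replicate 2. With all libraries, 56.25% of the cell cycle genes were called, against 39.5% of all genes. The inhibitors Cdkn2a (log2 1.93) and Cdkn1a (1.15) and the cyclin Ccnd1 (1.18) led the higher ones. Cdkn2a averaged 0.329 and 0.263 in B-MF, against 0.00310 and 0.00445 in Mo-MF.

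In the tumor libraries all 3 members were found. The tumor table was normalized apart from the culture table, so its levels are set beside those of the cultures with no test. In TAM libraries 2 to 5, Id3 averaged 0.760, 0.915, 0.866 and 1.01, with a count in 24.1% to 29.2% of cells. Before thinning, these levels lay between those of B-MF and Mo-MF. Id1 averaged 0.474, 0.761, 0.510 and 0.630, above both cultures, with a count in 19.4% to 26.7% of cells. Id2 averaged 4.47, 3.30, 3.65 and 3.96, below both cultures before thinning, with a count in 61.5% to 68.2%. Thinned to 5000 counts, the share with Id3 was 18.8% to 24.1% in TAM. The order of the means changed at this equal total, which matches the sum of corrected counts alone, since median detected genes were 3400 to 3874 in culture and 1566 to 2148 in tumors. Id3 then averaged 0.461, 0.609, 0.560 and 0.637 in TAM, against 0.678 and 0.584 in B-MF, so the libraries overlapped, and 0.0132 and 0.0154 in Mo-MF. Id2 averaged 2.69, 2.03, 2.23 and 2.45 in TAM, which overlapped with 2.45 and 2.39 in B-MF and lay above 1.68 and 1.66 in Mo-MF. Id1 stayed above both cultures, at 0.296 to 0.481 in TAM. Its thinned means were 0.0687 and 0.0719 for B-MF, with Mo-MF at 0.0239 and 0.0182. These TAM levels are of whole libraries, in which 37.0% to 63.2% of cells were neutrophil-like. In macrophage-like tumor cells alone, Id1 averaged 0.232 to 0.494 before thinning, which overlapped with 0.284 and 0.275 in B-MF. At clustering resolutions of 0.25 and 1 it was 0.117 to 0.165 and 0.121 to 0.255, above neither B-MF library.

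The tumor cells that carried the members differed from gene to gene. Id1 averaged 0.747 to 0.975 in neutrophil-like, 0.327 to 0.435 in monocyte-like and 0.232 to 0.494 in macrophage-like cells over the 4 libraries. The columns of this table show a library number that the sample titles do not match, so ranges are given in place of an SD. The neutrophil-like level was the highest in every library, and the libraries of the next 2 classes overlapped. At clustering resolutions of 0.25 and 1 they did not, as Id1 in macrophage-like cells was then 0.117 to 0.165 and 0.121 to 0.255, below 0.333 to 0.495 and 0.355 to 0.482 in monocyte-like cells. Neutrophil-like cells gave 58.3% to 80.9% of all Id1 counts. The mean of Id1 in the whole library fell from library 3 to 5, 4 and 2, the order in which the share of neutrophil-like cells fell (63.2%, 56.5%, 48.3% and 37.0%), and within neutrophil-like cells it was 0.975, 0.894, 0.790 and 0.747. The part of cell composition in the differences between libraries was not tested. The 123 cells rich in granule genes (cluster 8, led by Camp and Ltf) had the highest Id1 of all clusters, at 2.19, 3.27, 2.04 and 2.51 in libraries 2 to 5, and little Id3, at 0 to 0.167.

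Id2 had its highest level in dendritic-like cells, at 17.4, 23.5, 16.2 and 17.0 in libraries 2 to 5. Monocyte-like cells followed with 6.52 to 8.22 and macrophage-like cells with 4.45 to 5.42. B-like cells had 1.24 to 3.26, neutrophil-like cells 1.47 to 1.93 and osteoclast-like cells a mean of 1.27. The libraries of the first 3 classes did not overlap with one another or with any lower class, while the last 3 classes overlapped. At a resolution of 0.25, macrophage-like cells had 3.01 to 3.59 and overlapped with B-like cells. The dendritic-like class held only 105 cells, 21 to 32 in each library.

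Id3 was spread over more classes. It averaged 0.951 to 1.15 in neutrophil-like, 0.678 to 1.06 in monocyte-like, 0.523 to 1.10 in B-like and 0.553 to 0.698 in macrophage-like cells. Neutrophil-like cells lay above macrophage-like cells in all 4 libraries, while monocyte-like and B-like cells overlapped with both. At resolutions of 0.25 and 1, macrophage-like cells had only 0.192 to 0.314 and 0.335 to 0.479 and lay below all 3 of these classes. The share of cells with a count of Id3 did not follow this order, with a mean of 25.2% of neutrophil-like and 31.0% of monocyte-like cells. Dendritic-like and osteoclast-like cells had little Id3, at 0 to 0.190 and 0 to 0.0667. The B-like cluster of 331 cells also carried all 8 T and NK markers above average, so it was not B cells alone. Among macrophage-like cells, cluster 4, led by Arg1 and Pf4, had 0.957, 0.827, 0.887 and 0.882 counts of Id3 and cluster 3, led by C1qc and C1qa, 0.345, 0.417, 0.372 and 0.448.

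**Figure D4:**
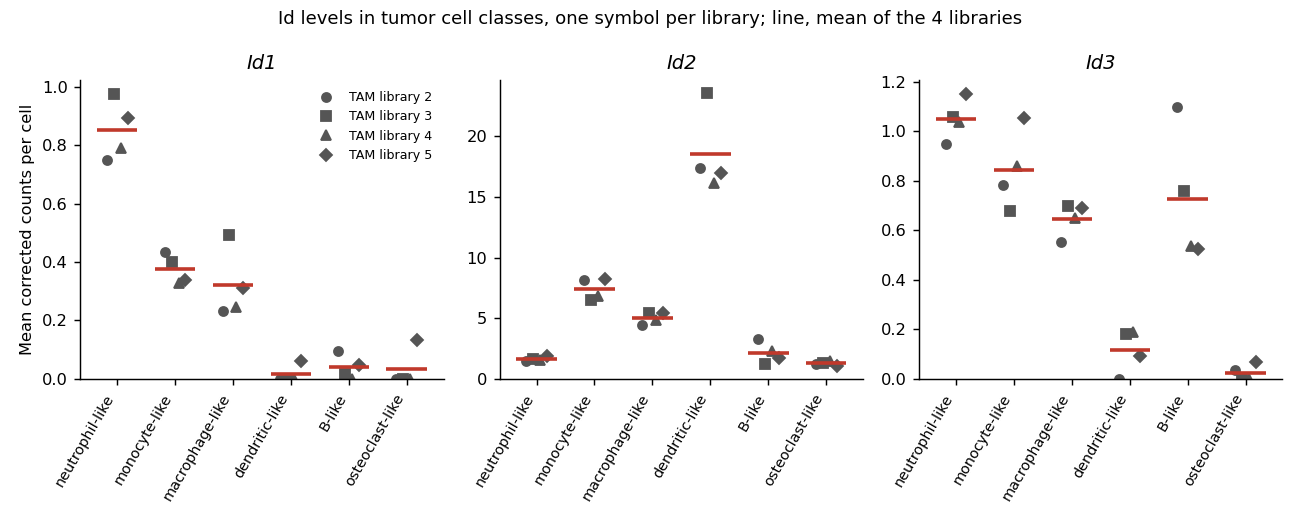
Mean corrected counts per cell of each Id gene (vertical axis, a separate scale for each gene) in 6 classes of tumor cells, with a symbol for each library and a line for the mean of the 4. Id1 was highest in neutrophil-like cells (0.747 to 0.975), Id2 in dendritic-like cells (16.2 to 23.5), and Id3 was spread over 4 classes.

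ATAC-seq measures open chromatin, and at the Id genes it does not rest on the choice of the members. Peaks were called by the authors in each library, with a fold enrichment over background for each peak, and depth of the single libraries is unknown. Overlapping peaks were merged into 101333 regions, of which 30492 had a peak in all 12 libraries. Within 100 kb of the start of the Id genes lay 99 regions, 32 at Id1, 26 at Id2 and 41 at Id3, and 32 of them had a peak in every library, as did 30.1% of all regions. The Id gene had the nearest start at 7 of the 32 regions of Id1, 24 of the 26 of Id2 and 16 of the 41 of Id3. The rest lay nearest another gene and are called Id regions by distance alone. Coordinates are of mm10 (GRCm38).

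A region at the start of each Id gene was open in all 12 libraries. Each of these regions held the RefSeq start of its gene. Distances were counted from the outermost GENCODE start, which lay in the region for Id1 but 372 bases outside it for Id2 (chr12:25097140, minus strand) and 24 bases outside it for Id3 (chr4:136143497, plus strand). At Id1 (region chr2:152735863-152736681, over an exon) the fold enrichment was 9.42 to 11.4 in BM and 6.97 to 10.5 in spleen, so the tissues overlapped. At Id2 (chr12:25095800-25096768, over exons) it was 17.0 to 20.1 in BM and 20.9 to 24.7 in spleen, without overlap. At Id3 (chr4:136143521-136144198, over exons) it was 9.14 to 10.4 in BM and 11.5 to 13.7 in spleen, again without overlap. A peak 1.0 kb upstream of Id1 was called in 11 libraries, at 3.95 to 6.77 in BM and 5.68 to 9.08 in 5 spleen libraries.

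BM was compared with spleen by limma on log2 fold enrichment over the 30492 regions, of which 54.8% passed (17.7% higher and 37.1% lower in BM) with Benjamini-Hochberg adjustment. The start of Id2 was lower in BM (log2 -0.35, SE 0.06, adjusted p = 0.00075), as was that of Id3 (log2 -0.29, SE 0.05, adjusted p = 0.000988). The start of Id1 did not pass (log2 0.13, SE 0.09, adjusted p = 0.255). The median of all regions stood at -0.11. With quantile normalization, which moved that median to -0.00448, Id2 gave -0.22 and Id3 -0.24, and both still passed in limma (adjusted p = 0.00731 and 0.0105). Of the 32 Id regions, 6 were higher and 13 lower in BM, 59.4% called, close to the share of all regions. Quantile normalization gave 7 higher and 11 lower at the Id genes, and 7415 higher and 7866 lower in place of 5400 and 11304 over all regions.

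CSF1R+ and CSF1R- cells were compared in the same fit. Limma called 0 of the 32 Id regions in BM and 0 in spleen, and 0 for the difference of these contrasts. At an unadjusted p under 0.05 there were 3, 6 and 6 of the 32, against 12.3%, 12% and 19.6% of all regions, and the lowest adjusted p from limma was 0.351, 0.124 and 0.0906. Calls were as rare elsewhere, at 0.00328%, 0.00328% and 0.00656% of the 30492 regions. The study tested read counts with DESeq2 and reports many regions as more open in CSF1R+ than in CSF1R- cells of BM. The peak lists hold no counts with which to repeat that test, and regions without a peak in all 12 libraries were not in this fit. The rarity of calls here is therefore no measure of the difference that the study reports. At the start of Id3 the log2 difference was -0.11 (SE 0.08) in BM and 0.08 (SE 0.08) in spleen, and at that of Id2 it was 0.08 (SE 0.09) and 0.09 (SE 0.09). At the start of Id1 it was -0.16 (SE 0.13) in BM and -0.16 (SE 0.13) in spleen, where it turned to 0.03 without spleen CSF1R+ replicate 2. Without spleen CSF1R- replicate 3, limma made 2 calls in place of 0 at the 32 regions, summed over these contrasts. Over all regions it then called 53 in spleen in place of 1. For the difference it called 1 higher and 81 lower, in place of 0 and 2.

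Other regions had a peak in BM alone. The BM libraries had 65832 to 76530 peaks each and the spleen libraries 43407 to 50392, so a missing peak need not mean closed chromatin. At 15 of the 99 Id regions each of the 6 BM libraries had a peak and the spleen libraries had none, 15.2% against 11.2% of all 101333 regions. The reverse, a peak in each spleen library only, was found at 2 Id regions, against 2.01% of all regions. Of the 15, Id1 had 6, Id2 5 and Id3 4. Some of the 15 lay nearest the start of another gene, such as Bcl2l1 near Id1. The strongest at Id1 lay 12.2 kb upstream (chr2:152723668-152724443), with 16.4, 18.3 and 18.8 in CSF1R+ and 21.5, 21.3 and 21.4 in CSF1R- cells of BM. Id2 had one 36.1 kb upstream (chr12:25132963-25133517), with 14.9, 14.8 and 12.9 in CSF1R+ and 18.7, 17.7 and 19.0 in CSF1R- cells of BM. At both the CSF1R+ libraries of BM lay below the CSF1R- libraries, which was not tested because regions without a peak in all 12 libraries were not in the fit. This order was found at 7 of the 15 BM-only Id regions, against 15.9% of the 11349 BM-only regions, and the reverse at 0, against 3.16%. Of the 62 Id regions with a peak in every BM library, 15 had this order and 0 the reverse, against 18.4% and 2.1% of all such regions. The medians over all peaks had it too, at 7.34 to 8.12 in the CSF1R+ and 8.23 to 8.59 in the CSF1R- libraries of BM. Over the regions shared by all libraries, the median CSF1R difference in BM was -0.0975 on the log2 scale, and 0.00481 with quantile normalization. At Id3, a region 31.0 kb upstream (chr4:136112307-136112742) had a peak in 6 BM libraries (11.4 to 17.1) and in 1 spleen library (6.94). It was outside the rule for named regions and was chosen after its values were seen.

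Regions shared by both tissues were also strong. The region with the highest mean fold enrichment at Id2 lay 58.5 kb upstream, in a stretch where Id2 is the nearest gene (chr12:25155236-25155962). It gave 21.1 to 25.6 in BM and 18.7 to 24.4 in spleen (log2 0.07, SE 0.06), and with quantile normalization it passed as higher in BM (log2 0.21). Another at 68.6 kb gave 13.3 to 14.9 in BM and 13.01 to 17.0 in spleen (log2 -0.09, SE 0.06). At Id1 and Id3 the highest shared regions belonged to neighbours, such as Bcl2l1 (log2 -0.39, SE 0.06) and Rpl11 (-0.27, SE 0.10). The region at Asap3, 62.9 kb from Id3, gave log2 -0.20 (SE 0.06) and, like that at Rpl11, did not pass with quantile normalization. Regions in H13 near Id1 (log2 0.02) and 61.6 kb upstream of Id3 (log2 -0.13) did not pass either way.

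**Figure D5:**
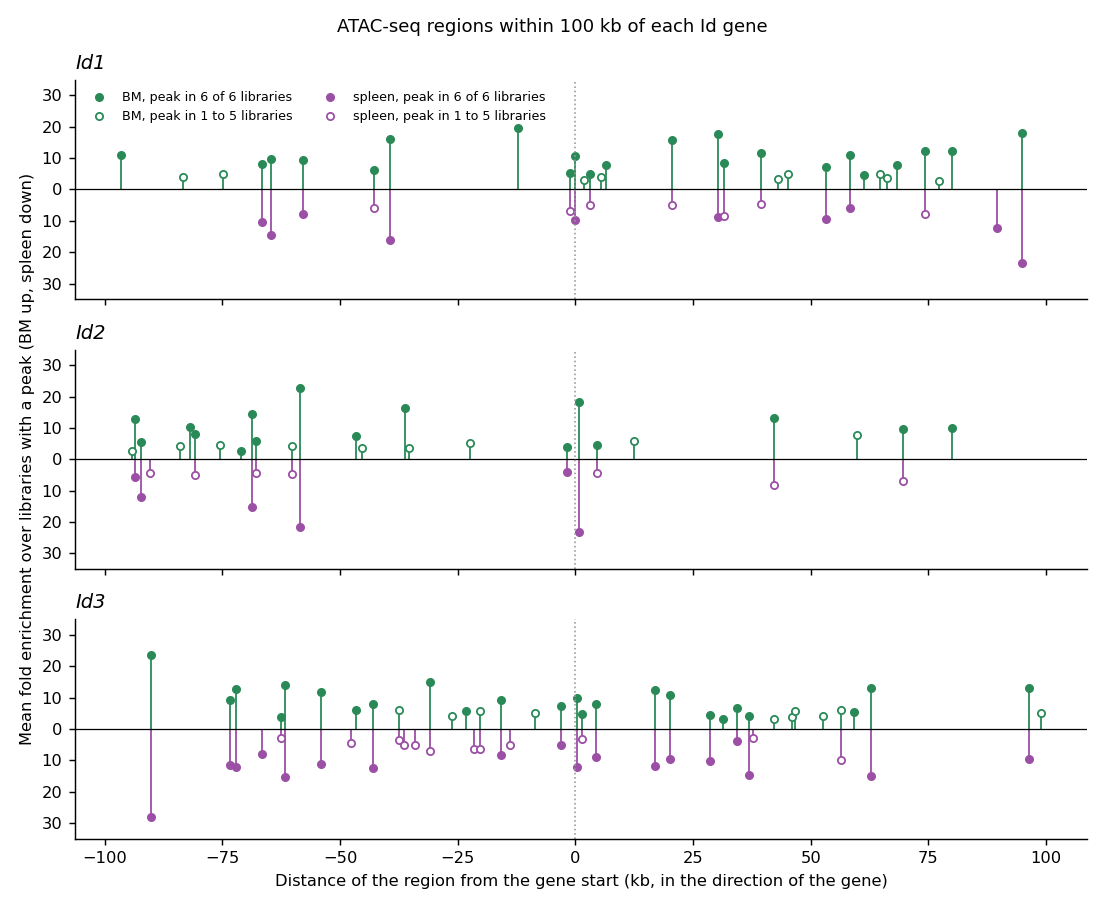
Mean fold enrichment of the ATAC-seq regions within 100 kb of each Id gene, upward for BM and downward for spleen, over the libraries with a peak (vertical axis) against distance from the start of the gene in kb (horizontal axis). Filled points had a peak in all 6 libraries of the tissue and open points in fewer. The region 36.1 kb upstream of Id2 had a peak in BM only, and the start of Id2 was at 18.2 in BM and 23.1 in spleen.

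Sequences of 4 of these regions are shown because E boxes are the sites from which Id proteins keep E proteins away. Capitals mark the E-box cores CAGCTG and CAGGTG, the latter also as its reverse CACCTG. They were read from the RefSeq copy of GRCm38. The first is 300 bases of the region at the start of Id2 outside exons (chr12:25096254-25096553, minus strand). The others are 200 bases (plus strand) centred on the summit of the highest peak in each region. The Id2 stretch lies 162 to 461 bases upstream of the RefSeq start of Id2 and, by the longer GENCODE gene, within the gene. The windows of the others are chr12:25155452-25155651, chr12:25133175-25133374 and chr4:136112449-136112648.
Id2 start: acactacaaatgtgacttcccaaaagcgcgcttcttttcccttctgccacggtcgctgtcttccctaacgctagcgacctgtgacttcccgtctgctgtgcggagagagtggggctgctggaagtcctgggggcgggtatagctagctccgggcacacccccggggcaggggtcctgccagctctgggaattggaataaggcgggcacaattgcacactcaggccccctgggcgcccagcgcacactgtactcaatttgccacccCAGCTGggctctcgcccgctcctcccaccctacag
Id2, 58.5 kb upstream: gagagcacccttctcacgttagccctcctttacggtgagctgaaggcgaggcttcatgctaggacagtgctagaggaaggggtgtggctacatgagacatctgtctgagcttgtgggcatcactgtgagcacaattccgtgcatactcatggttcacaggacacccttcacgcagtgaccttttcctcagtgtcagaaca
Id2, 36.1 kb upstream: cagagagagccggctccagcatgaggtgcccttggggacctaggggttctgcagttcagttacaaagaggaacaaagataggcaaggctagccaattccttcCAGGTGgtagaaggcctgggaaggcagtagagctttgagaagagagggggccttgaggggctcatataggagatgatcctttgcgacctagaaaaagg
Id3, 31.0 kb upstream: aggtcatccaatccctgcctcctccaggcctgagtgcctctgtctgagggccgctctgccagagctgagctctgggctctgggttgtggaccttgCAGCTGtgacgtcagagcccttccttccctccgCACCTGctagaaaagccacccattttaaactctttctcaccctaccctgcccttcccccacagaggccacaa

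The stretch of Id2 held 1 core, CAGCTG, at base 266 of the stretch, and the SMAD core GGCGCC at base 231. The 200 bases searched 58.5 kb upstream, in the region open in both tissues, held 0. Those of the BM-only region 36.1 kb upstream held 1, at base 103, and those of Id3 held 2, at bases 96 and 129. Over both strands, 54 of the 99 Id windows of 200 bases held a core, 54.5% against 33.6% of 101330 such windows over all regions and 33.0% of the 32851 RefSeq promoters of 300 bases. The share was 16 of 32 at Id1, 17 of 26 at Id2 and 21 of 41 at Id3. Each window of 200 bases was centred on the summit of the highest peak in its region. Many of these regions lay nearest another gene. Regions near a gene are not independent draws and no test was made. The EGR motif GCGTGGGCG was found in 1 of the 99 windows and in 0.208% of all windows. That window was in the Id3 set, but its nearest start was that of Rpl11. A match is a stretch of letters, not a bound site.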

How the data were processed

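The members, the gene lists and the tests were chosen with earlier results of these data known. Per the labels and the study's methods, the authors ran Cell Ranger and SCTransform. The deposited table holds, as a natural log, corrected counts to which 1 was added, and gives no sequencing depth per cell. The values were turned back into counts, all of them whole within 1e-06, and averaged per library. No count model was used, and intervals for counting error were not given. For ATAC-seq, the authors trimmed with cutadapt, aligned to mm10 with BWA and called peaks with MACS2 in each library. The deposited fold enrichment, a ratio, and -log10 q were used, the latter only as a filter. Motifs and gene positions were taken from RefSeq and GENCODE for GRCm38.

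Log2 (library mean + 0.1) of genes with a mean of at least 0.1, and log2 fold enrichment of regions with a peak in all 12 libraries, were fitted with limma 3.58.1 (lmFit, eBayes) in R 4.3.3 and called at an adjusted p of 0.05. Peaks were merged where they overlapped by at least 1 base, and a region took its highest peak. Cells were clustered in Python 3.11.15 with leidenalg 0.10.2 (2000 variable genes without Id1 to Id4, 30 components, 20 neighbors, resolution 0.5), and clusters were named from fixed markers. Named genes were the members, the E proteins, the list genes with up to 3 largest differences each way past the threshold, 10 list genes with a known link to Id genes, the 12 highest and 6 lowest r with Id3, and the 5 highest with Id1 and with Id2. Tal1, Lyl1, Cd79b, Igkc and the region 31.0 kb from Id3 were outside it and chosen after their values were seen. A gene that this rule names is not reported here. Named regions were those within 1 kb of an Id start and up to 3 more per gene by mean fold enrichment. On simulated data with 200 changed features, the fits recovered 97% in 8633 genes and 95% in 30492 regions, with 1.02% and 5.94% of calls false. In the real data 39.5% of genes and 54.8% of regions were called, so these rates need not carry over to them. Alternatives changed the pseudocount, filters, scaling, cells, clustering and peak threshold, added a replicate block or left out a library. Same-numbered libraries deviated together with r of 0.13 in culture and -0.02 to 0.15 in ATAC-seq, so the numbers were not taken as pairs.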

Additional observations from a re-analysis of the deposited data

Results flagged for a closer look

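In 30 groups, each of the 4 TAM libraries, a library was singled out where its gap to the nearest other exceeded the usual 95% limit. Chance does so in about 1 of 20 groups. The culture and ATAC-seq libraries were not screened in this way. In dendritic-like tumor cells, Id1 averaged 0.0625 in TAM library 5 and 0 in the other 3. In osteoclast-like cells, Id1 averaged 0.133 in the same library and 0 in the others. These classes hold 11 to 32 cells in each library, so a single cell can set such a mean. In dendritic-like cells, Id2 averaged 23.5 in TAM library 3, above 16.2 to 17.4 in the other 3.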

How the results depend on the processing

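Of 411 values under alternative settings, 345 kept their direction, threshold side or size within the stated bounds, 62 moved and 4 reversed. With a pseudocount of 0.01, the log2 difference was 1.75 for Id1 and 5.45 for Id3, and with 1 it was 0.25 for Id1, 0.46 for Id2 and 1.72 for Id3, since low means weigh less against a larger constant. On means of the deposited logs it was 0.12, 0.45 and 1.08. Id1 gave 1.49 without the neutrophil-like cluster and, chosen after seeing the data, 1.16 without the high-mitochondrial cluster. Leaving out one library gave 1.08 to 1.14 for Id1, 0.48 to 0.54 for Id2 and 4.01 to 4.23 for Id3.

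Counting only cells with at least 2 counts, the mean shares for Id1, Id2 and Id3 were 5.54%, 90.8% and 38.7% of B-MF, 1.87%, 85.7% and 0.818% of Mo-MF, and 12.96%, 49.8% and 17.4% of TAM. After thinning they were 4.85%, 78.7% and 30.8%, then 1.53%, 69.8% and 1.21%, then 17.8%, 57.5% and 22.0%. In macrophage-like clusters alone, Id1 was in 9.82% of B-MF, 0.788% of Mo-MF and 17.3% of TAM, Id2 in 92.6% of Mo-MF and 76.8% of TAM, and Id3 in 3.18% of Mo-MF. Cluster 3, which held 1165 and 1324 Mo-MF cells, had no name and is left out of these shares. Clusters 4 and 5 of that culture class have a monocyte marker and none of their own among their leading 10 genes. The shares therefore describe each culture and are no comparison of the cultures.

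Of the 12 genes with the highest r to Id3, 7 remained among the first 12 without cycling and mitochondrial clusters. Given each cell's total of corrected counts and its number of detected genes, 5 remained. In cluster 0 alone (chosen after seeing the data), 4 remained. With one library alone, 7 to 11 remained. In tumors, Id1 in neutrophil-like minus macrophage-like cells was 0.72 at clustering resolution 0.25, 0.73 at 1 and 0.18 on deposited logs, and 0.51 to 0.55 without one library. For Id3 these were 0.805, 0.689 and 0.0661, and 0.38 to 0.42. Id2 in monocyte-like minus neutrophil-like cells was 1.06 on deposited logs and 5.48 to 6.09 without one library.

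The number of genes called ranged from 2042 without Mo-MF replicate 1 to 5500 without B-MF replicate 2 (3413 with all), and list genes from 60 to 97 (75 with all). Here a lone library is taken to vary like the other group. With quantile normalization, the CSF1R differences reversed to 0.000448 at the start of Id3 in BM, and to -0.0133 at Id2 and -0.0643 at Id3 in spleen. Without one library, the CSF1R difference at Id1 in spleen ran from -0.26 to 0.0350 (without spleen CSF1R+ replicate 2), and 0 to 2 CSF1R calls and 18 to 19 BM calls were made. The replicate block gave 3908 genes called and 79 list genes, and 18 of 32 Id regions for BM against spleen. It changed no call for the start of an Id gene. With 2 libraries per culture, small differences are the most exposed to these choices.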
